A study of Mus musculus with 18 samples.

Results

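Pex5l, Nkain4, Sept4, Negr1, Pde1c and Bean1 are 6 genes with known expression in the brain that differed between genotypes in PDGFRβ+ intestinal stromal cells (IntSCs). They were chosen by symbol, because their levels differed between Lats1/2-deleted and control stromal cells, from 23238 gene symbols in the count tables, and all 6 had a row of their own. The values that chose them are therefore given for IntSCs as a description, without a test. Bulk RNA was counted in 18 libraries of cells sorted from the small intestine of adult C57BL/6J mice, in order to ask how loss of the kinases LATS1 and LATS2 in stromal cells changes these cells and the neighbouring lacteals, the lymphatic vessels of the villi. Both genotypes carried the PDGFRb-CreERT2 driver, a Cre recombinase switched on by tamoxifen in cells that use the Pdgfrb promoter, with the Tomato reporter, by which IntSCs were sorted. The KO mice also carried floxed Lats1 and Lats2 alleles, and no floxed allele is listed for the WT mice. The groups were WT IntSC (n = 6), KO IntSC (n = 5), WT lacteal lymphatic endothelial cells (LECs, n = 4) and KO LECs (n = 3). KO LECs came from mice of the KO genotype, but the driver acts in PDGFRβ+ cells, so that a KO LEC library holds lymphatic cells from a mouse with altered stroma. The study's legends count replicates as mice, pooled from more than one experiment, and since the labels do not say which library came from which experiment, differences between experiments cannot be told apart from the spread within a group.

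LATS1 and LATS2 are the kinases of the Hippo pathway that phosphorylate YAP and TAZ and keep them out of the nucleus. Without these kinases YAP and TAZ enter the nucleus and act with TEAD factors on their target genes. The 6 genes belong to separate families. Pex5l, a relative of the peroxisomal import receptor Pex5, encodes TRIP8b, an accessory subunit of the HCN pacemaker channels. Nkain4 belongs to a family of small membrane proteins that interact with the Na/K-ATPase. Sept4 encodes a septin, a GTP-binding protein that assembles into filaments. Negr1 encodes an IgLON adhesion molecule, held on the surface of neurons by a lipid anchor. Pde1c encodes a phosphodiesterase that breaks down cyclic nucleotides when calcium and calmodulin are bound. Bean1 encodes a membrane protein found through its binding to the ubiquitin ligase Nedd4.

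Total counts ranged from 5361250 to 10549233 per library. On these totals, 3 counts, the least taken here as detected, stood for 0.284 to 0.560 CPM, the counts of a gene in every 1000000 counts. This range is without the TMM scaling used for the levels, so that 3 counts stand for a slightly different CPM there. Intervals and floors cover counting error only. All levels below are CPM, scaled together over the 18 libraries with TMM factors. They were compared between libraries, for 1 gene or 1 summed list at a time. The labels name a Quant-Seq kit, a method that counts the 3′ end of a transcript, but with a catalogue number that may belong to another kit, so that it is not settled here whether reads came from the 3′ end or the whole transcript. Gene totals of either kind do not show the loss of single exons and do not check the deletion. Lats1 spanned 0 to 30.1 CPM in WT IntSCs and 12.9 to 21.2 CPM in KO IntSCs, and Lats2 spanned 41.5 to 113 CPM and 80.0 to 130 CPM. Of 15 listed YAP/TAZ targets 13 were tested in IntSCs, and 2 passed the threshold, both higher in KO IntSCs. These were Amotl2, an angiomotin (log2 fold change 2.09 ± 0.25 SE, edgeR adjusted p = 8.97e-05), and Crim1, a transmembrane regulator of growth factors (1.52 ± 0.21 SE, edgeR adjusted p = 0.000284). The median over the 13 was 0.71, beside 0.00 over all 12421 genes tested.

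Neuronal and glial markers did not set the stromal libraries apart from the LEC libraries. Of 9 enteric glia markers, Gfap, Erbb3, Cdh19 and Fabp7 had no read in any of the 4 groups. The summed glial markers spanned 6.36 to 26.3 CPM in WT IntSCs and 0.915 to 14.5 CPM in KO IntSCs, beside 0 to 31.8 CPM in WT LECs. Summed over 12 enteric neuron markers, the levels were 19.0 to 40.9 CPM in WT IntSCs and 11.2 to 34.7 CPM in KO IntSCs, beside 12.7 to 42.6 CPM in WT LECs. The 6 fibroblast markers did separate the cell types, at 9592 to 14470 CPM in WT IntSCs, 6073 to 10676 CPM in KO IntSCs and 254 to 1863 CPM in LECs. As single genes of the marker lists, Col3a1 and Kcnj8 fell in KO IntSCs and Krt19 rose, with edgeR adjusted p = 0.0438, 0.0472 and 0.00339. The 6 summed pericyte markers, Kcnj8 among them, overlapped between WT IntSCs (324 to 580 CPM) and KO IntSCs (311 to 637 CPM). Summed epithelial markers were 23.4 to 118 CPM in KO IntSCs, against 119.9 CPM in WT IntSC replicate 6 and at most 17.9 CPM in the other WT IntSC libraries. Medians were also higher in KO than WT IntSCs for smooth muscle (2169 and 1435 CPM), blood endothelial (636 and 395 CPM) and lymphatic markers (358 and 268 CPM). Those of leukocytes and interstitial cells of Cajal were lower, and each of these lists overlapped. The part of these markers in the levels of the 6 genes was not tested, and in bulk libraries fewer cells of a type and less RNA per cell cannot be told apart.

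**Figure D1:**
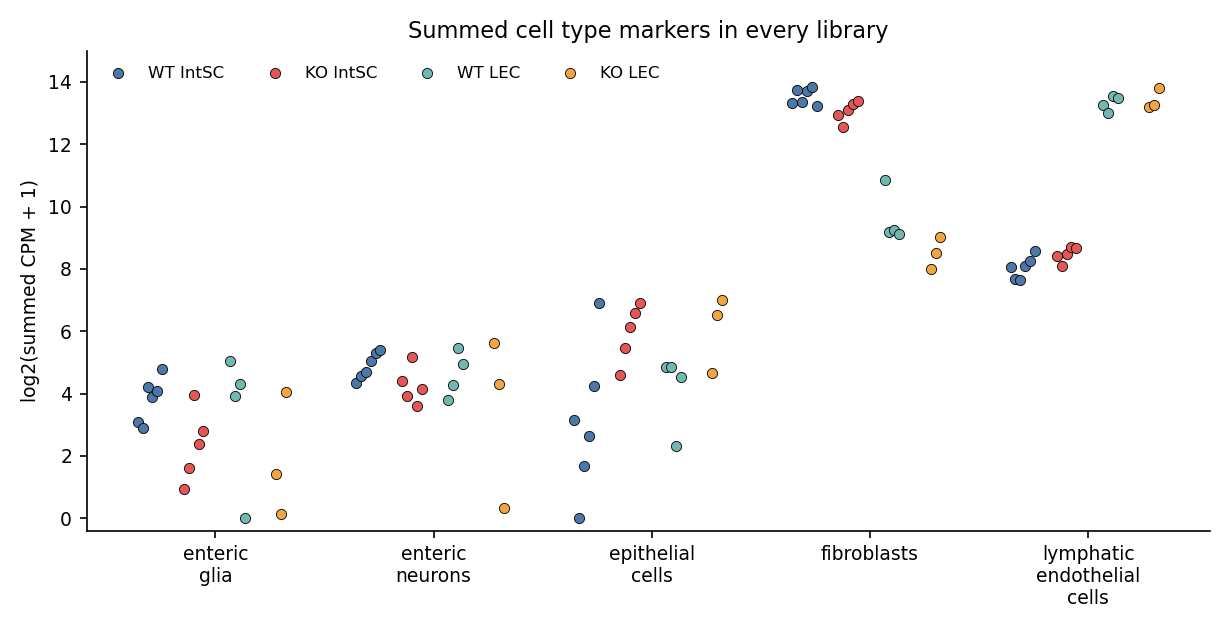
Each point is the summed CPM of one marker list in one library, as log2(summed CPM + 1), for the 6 WT IntSC, 5 KO IntSC, 4 WT LEC and 3 KO LEC libraries. Glial and neuronal markers overlap between stromal and LEC libraries, fibroblast markers sum to at least 6073 CPM in every stromal library and at most 1863 CPM in every LEC library, and lymphatic markers are higher in the LEC libraries.

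In KO IntSCs 3 of the 6 genes were higher than in WT IntSCs, Pex5l, Nkain4 and Sept4, and the other 3, Negr1, Pde1c and Bean1, were lower. For each of the 6 the KO IntSC and WT IntSC values did not overlap. This is what chose the genes: among all 12421 genes tested in IntSCs, 2.83% had groups that did not overlap (1.63% with KO above and 1.2% with KO below WT), and 1.47% passed the threshold of an edgeR adjusted p under 0.05.

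**Figure D2:**
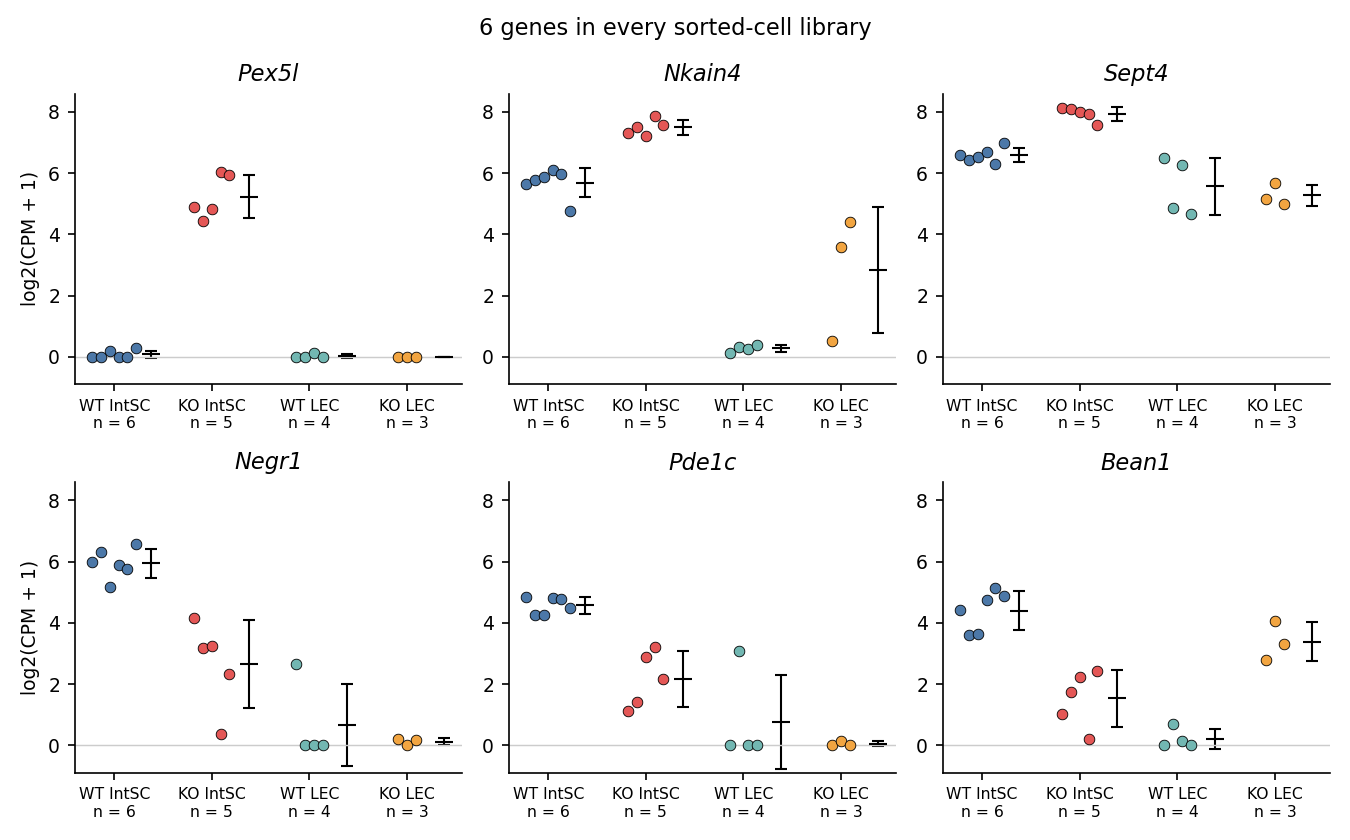
Each point is one library, on a log2(CPM + 1) scale, and each bar beside the points gives the mean ± SD of its group. Pex5l, Nkain4 and Sept4 are higher in all 5 KO IntSC libraries than in any of the 6 WT IntSC libraries, Negr1, Pde1c and Bean1 are lower, and Bean1 is higher in the 3 KO LEC libraries than in the 4 WT LEC libraries.

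Because YAP and TAZ act through TEAD factors, often beside AP-1, the promoters of the 6 genes were searched for 2 short motifs. RefSeq windows of 300 bases (250 before to 50 after a transcript start, GRCm38.p6) were given for 4 of the 6 genes, 9 windows in all, and none for Pex5l and Nkain4. The TEAD motif GGAATG, or CATTCC on the other strand, was in 1 of the 9 windows, beside 14.7% of 32851 windows of all genes. The AP-1 motif TGANTCA, whose reverse complement has the same letters, was also in 1 of the 9, beside 7.81% of all windows. Both motifs were searched on both strands, and no match of one overlapped the other. The 2 windows with a match are shown, for a gene that was higher and a gene that was lower in KO IntSCs, together with the single windows of Negr1 and Bean1, which held neither motif. Capitals mark the match, at position 192 of the Sept4 window and position 5 of the Pde1c window, counted from 1 at the 5′ end.
Sept4, chr11:87580811-87581110, plus strand: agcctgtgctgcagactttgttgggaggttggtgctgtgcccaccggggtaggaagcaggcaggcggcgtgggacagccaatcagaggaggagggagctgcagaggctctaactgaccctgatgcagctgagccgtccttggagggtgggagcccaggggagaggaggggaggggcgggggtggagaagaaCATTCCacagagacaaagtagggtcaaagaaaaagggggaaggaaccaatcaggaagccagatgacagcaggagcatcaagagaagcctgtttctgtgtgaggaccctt
Pde1c, chr6:56369585-56369884, minus strand: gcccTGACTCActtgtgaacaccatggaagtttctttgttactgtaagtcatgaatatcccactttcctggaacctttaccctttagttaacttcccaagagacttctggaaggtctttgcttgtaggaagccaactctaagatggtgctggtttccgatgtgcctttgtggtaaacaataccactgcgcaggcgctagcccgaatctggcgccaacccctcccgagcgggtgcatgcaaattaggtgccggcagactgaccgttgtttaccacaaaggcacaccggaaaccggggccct
Negr1, chr3:156561544-156561843, plus strand: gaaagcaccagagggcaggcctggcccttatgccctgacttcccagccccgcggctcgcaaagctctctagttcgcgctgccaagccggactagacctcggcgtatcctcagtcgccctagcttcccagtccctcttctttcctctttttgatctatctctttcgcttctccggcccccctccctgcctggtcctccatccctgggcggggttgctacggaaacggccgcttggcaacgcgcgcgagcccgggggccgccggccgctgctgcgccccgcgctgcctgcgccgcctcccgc
Bean1, chr8:104170263-104170562, plus strand: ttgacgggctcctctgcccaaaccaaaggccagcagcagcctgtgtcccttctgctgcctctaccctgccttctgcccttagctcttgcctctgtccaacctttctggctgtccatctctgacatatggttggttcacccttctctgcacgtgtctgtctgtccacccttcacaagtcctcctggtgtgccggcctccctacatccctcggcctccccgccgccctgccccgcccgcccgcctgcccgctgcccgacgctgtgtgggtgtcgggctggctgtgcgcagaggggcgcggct
A match is a run of letters and not a measured site, and its absence says only that the letters are not in this window.

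Pex5l was close to undetected outside KO IntSCs. The 6 WT IntSC libraries held 2 reads together, with a lowest value of 0, a median of 0 and a highest value of 0.211 CPM. The 5 KO IntSC libraries held 28.9, 20.8, 27.3, 64.1 and 60.0 CPM, or 152 to 452 reads each. Every KO IntSC library was thus far above every WT IntSC library, and within the KO group replicates 4 and 5 stood above the others. The ratio of the reads pooled over each group was 753, with a 95% counting interval from 208 to 6224, and the fitted log2 fold change of 9.14 ± 0.74 (SE) was the second highest of 12421. With 2 reads in the WT group, the size of this fold is set by counting. Without WT IntSC replicate 6, which held 1 of these 2 reads, the fitted value was 9.74. In LECs 1 read was found in WT LEC replicate 3 and none in the other 6 libraries, which allows no fold there.

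No tested relative or neighbour of Pex5l passed the threshold. Of 8 listed partners, 4 peroxisomal import genes were tested in IntSCs. Pex5 itself averaged 8.34 ± 8.41 CPM in WT IntSCs and 9.74 ± 5.25 CPM in KO IntSCs (SD). For Pex7, Pex13 and Pex14 the log2 fold changes were -0.63, 0.71 and 0.66, at edgeR adjusted p-values of 0.922, 0.869 and 0.802. The HCN channels that TRIP8b regulates in neurons were near 0, since Hcn2 did not exceed 4.45 CPM in any library and Hcn3 and Hcn4 averaged at most 0.0733 CPM in a group. On the genome, Pex5l spans 195 kb on the minus strand (GRCm38.p6, chr3:32947926-33143302). The genes on either side of it had edgeR adjusted p = 0.890 and 0.984 in IntSCs.

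Nkain4 was already present in WT IntSCs. The WT IntSC libraries ranged from 26.1 to 67.0 CPM with a median of 55.4, and the KO IntSC libraries held 159, 182, 147, 232 and 190 CPM. The lowest KO library was above the highest WT library, and WT IntSC replicate 6 was the low one. The means were 52.4 ± 14.4 and 182 ± 32.6 CPM (SD), a log2 fold change of 1.80 ± 0.23 (SE), and 1.66 without WT IntSC replicate 6, whose summed epithelial markers were also set apart from those of the other WT libraries. The gene lies on the minus strand (GRCm38.p6, chr2:180934766-180954937).

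No relative of Nkain4 passed the threshold in IntSCs, among 10 tested of 12 listed NKAIN, Na/K-ATPase and FXYD genes. Nkain1 averaged 12.7 ± 3.13 and 6.27 ± 7.55 CPM (SD), with values from 0 to 18.8 in KO IntSCs that covered the WT range.

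Sept4 was highest in KO IntSCs and present in all 18 libraries. The WT IntSC libraries ranged from 77.6 to 125 CPM with a median of 94.1, against 281, 271, 254, 243 and 189 CPM in KO IntSCs. Every KO value was above every WT value. The means were 96.5 ± 16.3 and 247 ± 36.1 CPM (SD), and the log2 fold change was 1.36 ± 0.18 (SE). RefSeq lists the gene as Septin4 on the plus strand (GRCm38.p6, chr11:87566689-87590543).

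Septins assemble with each other, and 1 of 14 septin and Borg genes tested, of 17 listed, passed the threshold in IntSCs. This was Sept7, the septin that core filaments share, which rose from 164 ± 40.0 to 287 ± 23.2 CPM (SD). Its WT values reached 228 CPM and its KO values began at 255 CPM, so that the groups did not overlap. The log2 fold change was 0.81 ± 0.18 (SE) with an edgeR adjusted p of 0.0247. This call was lost in 8 of 18 alternatives, among them each fit without KO IntSC replicate 2, 3 or 5 or WT IntSC replicate 1, 3 or 4, with an edgeR adjusted p up to 0.196 in a fit of all 4 groups. For Sept8, Sept11 and Sept2 the log2 fold changes were 0.61, 0.56 and -0.05, none of them past the threshold (edgeR adjusted p = 0.118, 0.455 and 0.982).

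Negr1 was the adhesion gene of the set and was lower in every KO IntSC library. WT IntSCs ranged from 35.1 to 93.6 CPM with a median of 60.5, and KO IntSCs held 16.7, 7.94, 8.53, 0.298 and 3.98 CPM. The highest KO value was below the lowest WT value, and KO IntSC replicate 4, with 2 reads, was the lowest. The means were 63.5 ± 20.3 and 7.5 ± 6.14 CPM (SD), a log2 fold change of -3.08 ± 0.56 (SE). Negr1 is among the longest mouse genes, spanning 755 kb on the plus strand (GRCm38.p6, chr3:156561790-157316464), and 99.5% of 21896 protein-coding genes have a shorter span.

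None of the other IgLON genes passed the threshold in IntSCs, 2 tested of 4 listed. Iglon5 ranged from 9.06 to 24.1 CPM in WT IntSCs and from 0 to 6.85 CPM in KO IntSCs, groups that did not overlap. Its log2 fold change of -2.60 ± 0.86 (SE) did not pass the threshold (edgeR adjusted p = 0.173). For Ntm the value was -2.0, at an edgeR adjusted p of 0.799, and Lsamp and Opcml, averaging at most 1.27 CPM in any group, were not tested.

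Pde1c was also lower in every KO IntSC library. WT IntSCs ranged from 17.9 to 27.8 CPM with a median of 23.7, and KO IntSCs held 1.18, 1.64, 6.36, 8.35 and 3.45 CPM. No KO value reached the WT range. The means were 23.1 ± 4.53 and 4.2 ± 3.09 CPM (SD), with a log2 fold change of -2.45 ± 0.56 (SE). The gene spans 583 kb on the minus strand (GRCm38.p6, chr6:56069798-56652510).

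None of the 19 phosphodiesterase and calmodulin genes tested beside Pde1c passed the threshold in IntSCs. Pde1a, which encodes another calmodulin-dependent phosphodiesterase, averaged 131 ± 39.3 CPM in WT IntSCs and 134 ± 30.4 CPM in KO IntSCs (SD), 0.03 apart on the log2 scale (edgeR adjusted p = 0.987). Pde1b, the remaining gene of this family and named after its values were seen, averaged 23.9 ± 13.5 and 10.4 ± 6.30 CPM (SD), a log2 difference of -1.20 at an edgeR adjusted p of 0.365. The calmodulin genes Calm2 and Calm3 had log2 fold changes of 0.13 and -0.17.

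Bean1 was lower in KO IntSCs. WT IntSCs ranged from 11.2 to 34.1 CPM with a median of 23.1, and KO IntSCs held 1.05, 2.33, 3.72, 0.149 and 4.38 CPM. All KO values were below all WT values, and KO IntSC replicate 4, with 1 read, was the lowest as it was for Negr1. The means were 21.8 ± 9.27 and 2.33 ± 1.77 CPM (SD), a log2 fold change of -3.22 ± 0.69 (SE). Bean1 lies on the plus strand (GRCm38.p6, chr8:104170379-104219098). None of its 5 listed genes, Nedd4, its relative Nedd4l, the adaptors Ndfip1 and Ndfip2 and the adjacent gene Tk2, passed the threshold in IntSCs. Nedd4 averaged 278 ± 71.0 and 227 ± 43.5 CPM (SD), with an edgeR adjusted p of 0.737.

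**Figure D3:**
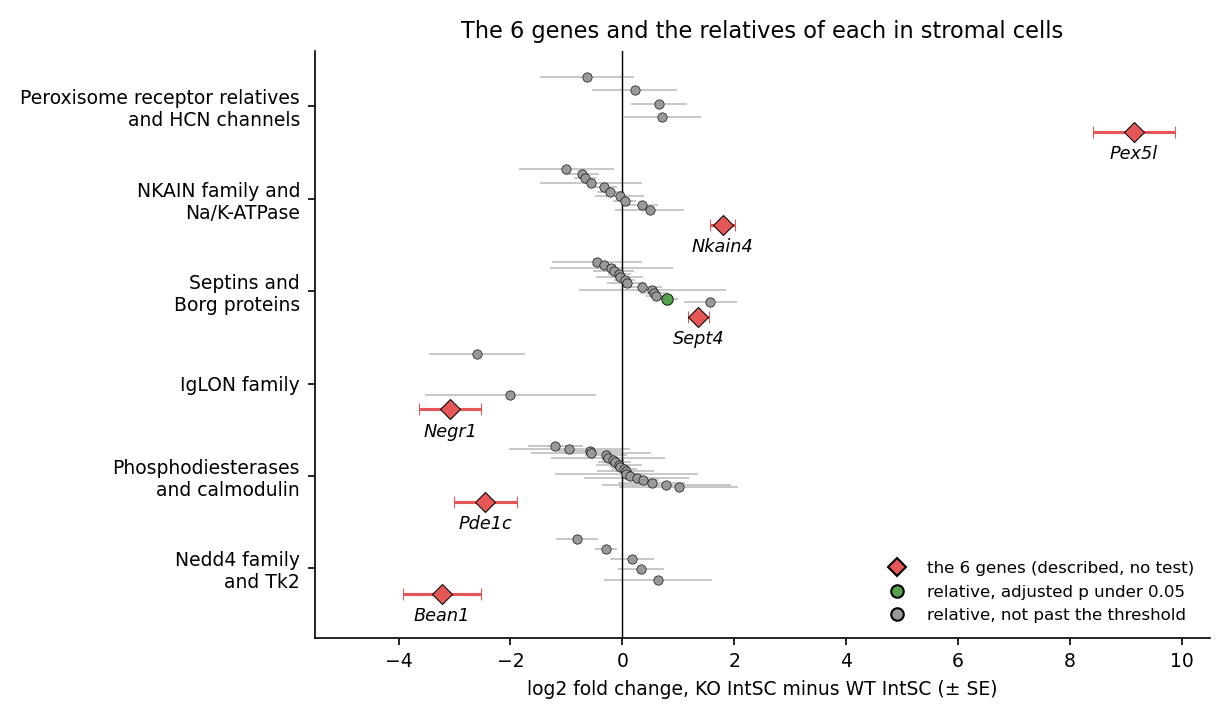
Diamonds give the fitted log2 fold change (KO IntSC minus WT IntSC, ± SE) of the 6 genes, and circles give the tested genes of the list that goes with each, 54 in all. Sept7, in green, is the only circle past an edgeR adjusted p of 0.05, and Pex5l at 9.14 lies farthest from its relatives.

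Over the 6 lists, 54 of 65 relatives were tested in IntSCs. Of these, 1 passed the threshold in the higher direction, 1.85% of the 54, and none in the lower, beside 1.47% of all genes tested. The median log2 fold change of the 54 was -0.05. By DESeq2, 4 of the 54 passed, beside 376 of all 12421 genes. Among the 4 were Sept7 and Sept8, higher, and Iglon5, lower in KO IntSCs.

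KO LECs were the one comparison that did not choose the genes. There, 4 of the 6 genes did not pass the filter on low counts, and 2 were tested, Sept4 and Bean1. Neither passed the threshold in the edgeR test, and 1 of the 2, Bean1, had an unadjusted p under 0.05. Bean1 passed the filter through its KO LEC libraries alone, where it was high, so its p-values in LECs are not independent of its level there. Of all 10639 genes tested in LECs 0.0658% passed the threshold, 7.87% had an unadjusted p under 0.05, and 9.93% had groups that did not overlap (3.48% with KO above WT). By DESeq2 neither of the 2 genes passed.

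Bean1 was higher in KO LECs, the opposite of its direction in IntSCs. The WT LEC libraries held 0, 0.617, 0.0937 and 0 CPM, or 6 reads in all, and the KO LEC libraries held 5.86, 15.7 and 8.93 CPM, or 266 reads. The lowest KO value was above the highest WT value, and replicate 2 was the highest library of each group. The ratio of the pooled reads was 69.9, with a 95% counting interval from 31.7 to 192, and the fitted log2 fold change was 5.82 ± 2.43 (SE). In edgeR's quasi-likelihood test its adjusted p was 0.542. With 1 library left out the log2 fold change ranged from 5.37 to 7.89, the highest without WT LEC replicate 2, which held 5 of the 6 WT reads. Over the 14 alternatives the edgeR or DESeq2 adjusted p ranged from 0.0231 to 1.0, and the lowest came from the fit of all 4 groups together, which passed the threshold but included the IntSC libraries that chose the gene. The difference between the directions in IntSCs and LECs was not tested, since the IntSC libraries chose the gene.

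Nkain4 was near the detection floor in WT LECs. The WT LEC libraries held 0.0951, 0.247, 0.187 and 0.30 CPM, from 1 to 3 reads each, and the KO LEC libraries held 0.419, 11 and 20.1 CPM. KO LEC replicate 1, with 3 reads, was only just above the WT libraries, and replicates 2 and 3, with 107 and 162 reads, were well above them. The ratio of the pooled reads was 53.6, with a 95% counting interval from 26.8 to 125. The gene did not pass the filter of the main fit and was not tested there. In 4 alternatives it was fitted, with log2 fold changes from 5.58 to 6.24 and edgeR adjusted p from 0.000101 to 0.571. The lowest came from the fit of all 4 groups, which included the IntSC libraries that chose the gene, and the others did not pass the threshold. Where a count filter applied, Nkain4 passed only through groups where it was high, so these p-values are not independent of its level.

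The 3 KO LEC libraries also differed in markers of other cells. In replicates 1, 2 and 3, summed epithelial markers were 24.4, 90.8 and 128 CPM, and summed fibroblast markers were 254, 362 and 517 CPM. Summed enteric neuron markers were 48.5, 18.6 and 0.248 CPM, and blood endothelial markers 613, 510 and 447 CPM. Leukocyte markers were 46.4, 0.31 and 0.248 CPM. Epithelial and fibroblast markers were thus lowest where Nkain4 was lowest, as were the lymphatic markers (9309, 9863 and 14337 CPM). Neuronal, blood endothelial and leukocyte markers were highest there. Glial markers (1.68, 0.103 and 15.5 CPM) and those of interstitial cells of Cajal (0, 0 and 4.84 CPM) were highest in replicate 3. Smooth muscle (109 to 121 CPM) and pericyte markers (154 to 190 CPM) had their highest value in replicate 2. In WT LECs the epithelial markers spanned 3.94 to 27.8 CPM, and the fibroblast markers spanned 556 to 1863 CPM, above those of every KO LEC library. The part of these markers in the Nkain4 and Bean1 levels of LECs was not tested.

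**Figure D4:**
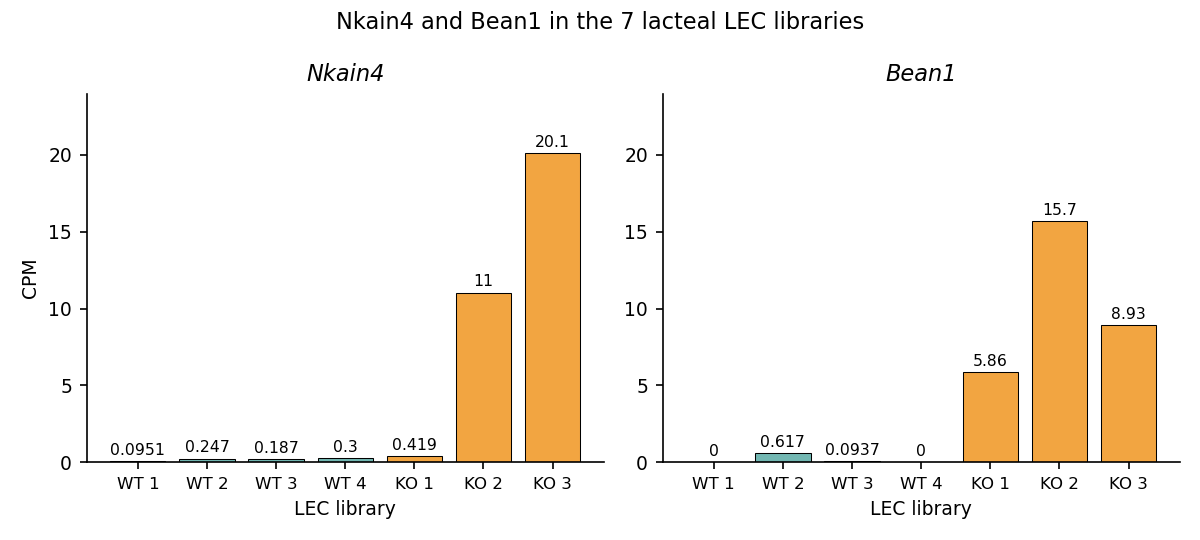
Bars give the CPM of Nkain4 and Bean1 in each of the 4 WT and 3 KO LEC libraries, with the value printed above. Bean1 is at least 5.86 CPM in every KO library and at most 0.617 CPM in every WT library, whereas Nkain4 is at 0.419 CPM in KO replicate 1 and at 11 and 20.1 CPM in the others.

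Sept4 did not separate the LEC groups. The WT LEC libraries held 88.4, 28.3, 75.5 and 24.1 CPM, and the KO LEC libraries held 34.8, 49.9 and 30.5 CPM. The KO values lay within the WT range, in which replicates 1 and 3 were high. The log2 fold change was -0.42 ± 0.62 (SE), and -0.08 without WT LEC replicate 1. Its edgeR adjusted p was 1.0.

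Negr1 and Pde1c were each found in a single WT LEC library. Negr1 held 5.33 CPM (56 reads) in WT LEC replicate 1, no read in the other 3, and 0.140, 0 and 0.124 CPM in KO LECs. Replicate 1 was also the WT LEC library with the most fibroblast marker RNA, 1863 CPM against 556 to 605 CPM in the others. That library also held the highest summed markers of smooth muscle (249 CPM), enteric glia (31.8 CPM) and interstitial cells of Cajal (18.8 CPM). Its pericyte (126 CPM) and enteric neuron markers (12.7 CPM) were the lowest of the WT LEC libraries. Pde1c held 7.40 CPM (60 reads) in WT LEC replicate 2, no read in the other 3, and 0, 0.103 and 0 CPM in KO LECs. The fibroblast markers of that library were not raised, at 576 CPM. Whether these 2 libraries carried stromal RNA was not tested.

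Of the 39 relatives tested in LECs, 0 passed the threshold in edgeR's test and 0 in DESeq2. In edgeR's test 7 of the 39 had an unadjusted p under 0.05, a larger share than the 837 of all 10639 genes (7.87%). In the fit of all 4 groups, in which 538 of 14015 genes passed, 6 of 57 relatives did: Atp1b2, Pde4c, Pde5a and Pde9a lower and Pde8b and Sept7 higher in KO LECs. These were named after their values were seen. All but Sept7 had failed the filter on LECs alone and entered this fit with the IntSC libraries. Of those that failed, only Pde4c did not overlap between the LEC groups (0.0951 to 15.1 CPM in WT and 0 in KO LECs). Pde8b, for example, had no read in WT LECs and 0 to 19.8 CPM in KO LECs.

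In control mice 5 of the 6 genes had a lower mean in LECs than in IntSCs, and Pex5l was at or under the floor in both. Since the WT IntSC libraries chose the genes, these differences carry no test. For Nkain4, Negr1, Pde1c and Bean1 every WT LEC library was below every WT IntSC library, 4 of the 6 genes, where 21.1% of all 12203 genes in that comparison did not overlap and 11.5% were lower in that way in LECs. The log2 difference (WT LEC minus WT IntSC) was -7.88 ± 0.63 (SE) for Nkain4 and -6.89 ± 1.27 for Bean1. It was -5.53 ± 1.26 for Negr1, and -11.9 without WT LEC replicate 1, the library that held its reads. For Pde1c it was -3.65 ± 1.46, and -10.5 without WT LEC replicate 2. Bean1 reached -8.84 without that same library. Sept4 overlapped between the cell types, with 24.1 to 88.4 CPM in WT LECs, and its log2 difference was -0.83 ± 0.37 (SE).

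Ordered by mean level over the 4 groups, Pex5l, Nkain4 and Sept4 began with KO IntSCs and then WT IntSCs, with a gap between these groups. For Nkain4 each further step, to KO LECs and then WT LECs, was also without overlap. The last step rests on 3 reads in KO LEC replicate 1 (0.419 CPM) and 3 reads in WT LEC replicate 4 (0.30 CPM), at the detection floor. For Sept4 the WT IntSC, WT LEC and KO LEC values overlapped from one to the next. Negr1 and Pde1c ran from WT IntSCs to KO IntSCs, WT LECs and KO LECs, with overlap at each step after the first. Bean1 had another order, WT IntSCs and then KO LECs, which overlapped, followed after a gap by KO IntSCs and then WT LECs, which overlapped as well.

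The genes whose levels over the 18 libraries were most like each of the 6 were sought among 12187 genes with a mean of at least 5 CPM in at least 1 group, by Pearson's r of log2(CPM + 1). The 18 points fall into the 4 groups and share their normalisation, so r is a description of group levels. Nearest to Pex5l were Wisp2, a secreted matricellular protein (r = 0.990), Tekt1, a tektin of cilia (0.969), and Pgpep1l (0.931). Wisp2, for example, was at most 0.168 CPM in WT IntSCs, 11.9 to 34.8 CPM in KO IntSCs, and had no read in LECs. Nearest to Nkain4 were the stromal transcription factor Tcf21 (0.948), the collagen Col8a1 (0.927) and the metallothionein Mt2 (0.924). Nearest to Sept4 were Rassf4 (0.956), the collagen cross-linking enzyme Lox (0.918) and the peroxiredoxin Prdx6 (0.910).

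The genes nearest to Negr1 and Pde1c were at low levels in LECs. Negr1 was most like the cytokine Il17d (0.948), the adenylyl cyclase Adcy2 (0.935) and 3110045C21Rik (0.928). Pde1c was most like 3110039I08Rik (0.942), the mesenchymal growth factor Fgf10 (0.931) and Nkain1 (0.928), itself a relative of Nkain4. Among the nearest to Bean1 were Mdfi (0.777) and Farp1 (0.773).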

How the data were processed

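RNA was measured in cells sorted by flow cytometry from mouse small intestine, 18 libraries in 4 groups taken from the sample titles. The authors deposited 1 table of raw read counts per gene symbol for each library (23282 rows, not normalised). Per the labels, the submitters' processing notes name Bowtie2, edgeR and the build mm10, and the study's methods name TopHat and Cufflinks. The counting program, annotation and strand setting are not given in the sources used here, so that reads of a gene and of an antisense partner cannot be told apart. Of the symbols 35 stood on more than 1 row and were summed, none of them among the 6 genes. No pair of libraries was identical.

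Counts were fitted over all genes with edgeR 4.0.16 in R 4.3.3 (TMM factors, filterByExpr, robust quasi-likelihood fit, Benjamini-Hochberg, threshold 0.05), with only the compared groups in each fit, and the scripts were tested on simulated counts. Ratios of pooled reads carry exact 95% binomial intervals. Alternatives were DESeq2 1.42.0, RLE factors, 2 other count filters (any gene with 1 read, and a mean of 10 counts), all 4 groups in one fit, removal of Rn45s (ribosomal RNA precursor), the replicate number as a block, and each library left out. The 6 genes and the lists were chosen with earlier results of these data known. Named besides them are listed relatives past the threshold or among the 6 highest of their list in IntSCs, the 3 genes most alike in level, Lats1 and Lats2; a few genes that this rule names are not reported here. Gene spans are RefSeq's for GRCm38.p6, the assembly that mm10 names.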

Additional observations from a re-analysis of the deposited data

Results flagged for a closer look

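In 8 of 57 groups of values examined 1 library stood far from the others. A rate of about 1 in 20, or 2.85, was taken for chance. That rate does not hold where all other libraries are at 0, as for Pex5l, Negr1 and Pde1c, so the 8 are not compared with it. Of the 8, 4 are genes described here, each set apart in 1 WT LEC library: Pex5l at 0.0937 CPM (1 read) in replicate 3, Negr1 at 5.33 CPM in replicate 1, Pde1c at 7.40 CPM in replicate 2 and Bean1 at 0.617 CPM in replicate 2.

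The others are measures of the libraries. WT LEC replicate 2 had a total count of 7464241, below the 10374749 to 10549233 of the other 3, and summed leukocyte markers of 29.7 CPM against at most 2.09 CPM. WT LEC replicate 1 had summed fibroblast markers of 1863 CPM against 556 to 605 CPM. WT IntSC replicate 6 had summed epithelial markers of 119.9 CPM against at most 17.9 CPM. Without it the log2 fold changes in IntSCs were 9.74 for Pex5l, 1.66 for Nkain4, 1.45 for Sept4, -2.93 for Negr1, -2.47 for Pde1c and -3.13 for Bean1.

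Bean1 differed in direction between the cell types, with a mean of 10.2 CPM in KO LECs above every WT LEC library and a mean of 2.33 CPM in KO IntSCs below every WT IntSC library. The difference was not tested.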

How the results depend on the processing

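No log2 value of the 6 genes or Sept7 reversed in any alternative. For the 6 genes, the values in IntSCs and between the WT cell types use libraries that chose the genes. Their stability follows in part from that choice and is a description only. Over these values 223 kept direction and call or stayed within 1 SD, 8 lost the call (all Sept7, in IntSCs), 1 gained it (Bean1 in LECs, all 4 groups in one fit) and 7 moved by over 1 SD. Nkain4 in LECs had no main fit and is not among these values. It passed only with all 4 groups in one fit (edgeR adjusted p = 0.000101). That fit included the IntSC libraries that chose Nkain4 and Bean1, so neither result is a call in LECs alone. The counts of genes past the threshold moved more. In LECs there were 7, but 309 by DESeq2, 538 with all 4 groups in one fit, 20 at a mean count of at least 10, 32 with no filter beyond 1 read, and from 0 to 16 with a library left out. In IntSCs there were 183, but 376 by DESeq2, 27 with all 4 groups in one fit, and 99 to 186 with a library left out. Of relatives past the threshold in IntSCs there was 1, but 4 by DESeq2, 0 with all 4 groups in one fit, and 0 to 1 with a library left out. In LECs there were 0, but 6 with all 4 groups in one fit. The cause was not tested. The LEC groups are the smallest, and levels of a few reads limit Pex5l in WT IntSCs and Nkain4 and Bean1 in WT LECs.

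Deviations of same-numbered libraries correlated by -0.00367 in LECs, 0.0098 in IntSCs and 0.028 between WT groups on average. For libraries of different number the averages were 0.00122, -0.0012 and -0.00549. Every same-numbered pair between the WT groups was positive, from 0.022 to 0.038. These values do not settle whether libraries of the same replicate number came from the same mouse, which the sample titles do not say. When that number entered the fit as a block, 3 genes passed in LECs, 122 in IntSCs, 0 of the relatives in IntSCs and 1596 of 2763 between WT LECs and WT IntSCs. Under that block Pex5l had a log2 fold change of 9.68 in IntSCs, and Bean1 one of 6.32 in LECs, with an edgeR adjusted p of 1.0. The log2 differences between WT LECs and WT IntSCs were -8.20 for Negr1 and -8.02 for Pde1c.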
